A study of Homo sapiens with 4 samples.

Results

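Integrin subunits of carcinoma cells were followed in SW1990 and PANC-1 cells, which are established human pancreatic cancer lines, with and without irradiation. The 10 subunits were chosen by name (ITGA2, ITGA3, ITGA5, ITGA6, ITGAV, ITGB1, ITGB4, ITGB5, ITGB6 and ITGB8), and all 10 were found among the 58174 genes of the expression table. They are 10 of the 26 integrin subunits in that table. The topic of the source study was tumour repopulation, that is the regrowth of a tumour once radiotherapy has been given. These libraries address which transcripts change in the irradiated cells. Both lines were grown in medium with serum, which was RPMI for SW1990 cells and DMEM for PANC-1 cells. Differences between the lines therefore cannot be told apart from those of the medium. Each line was left unirradiated or was given X-rays at a dose of 10 Gy. RNA was sequenced from 1 library for each of the 4 conditions. The time from irradiation to RNA extraction is not given in the sources used here.

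Integrins are receptors at the cell surface that bind extracellular matrix outside the cell and the actin or keratin cytoskeleton inside it. Each is a pair of 1 alpha and 1 beta subunit, and the pair sets the ligand. ITGB1 joins many alpha subunits, ITGB4 joins ITGA6 alone, and ITGB5, ITGB6 and ITGB8 join ITGAV. In epithelial tumours such as pancreatic carcinoma, integrins are known for their part in adhesion to laminin and collagen, in migration and in the release of active TGF-beta from its latent form.

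The libraries held 17939210 counts in unirradiated SW1990 cells, 18388969 in irradiated SW1990 cells, 23451153 in unirradiated PANC-1 cells and 20154644 in irradiated PANC-1 cells. Levels of different genes are compared below by FPKM, that is fragments per length of transcript and per size of the library. Changes of a gene between libraries are log2 ratios of its read counts after TMM scaling, which corrects library size so that most genes stay level. Intervals given with these ratios are 95% intervals that cover counting error only, since a condition with 1 library has no replicate spread. A gene was called different between a pair of libraries when its ratio passed 2-fold, provided that its FPKM reached 1 in either library. In all comparisons, values are listed as unirradiated and then irradiated for each line.

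The labels of both lines were checked with marker genes. The 7 epithelial markers summed to an FPKM of 2894 and 3728 in SW1990 cells, against to 1410 and 1639 in PANC-1 cells, and the most abundant of them was the keratin gene KRT8 in every library. All 7 were at an FPKM of at least 1 in SW1990 cells, against 5 and 6 in the PANC-1 libraries. The adherens junction gene CDH1 had 9906 and 14345 counts in SW1990 cells, against 59 and 65 in PANC-1 cells. The 5 mesenchymal markers summed to an FPKM of 1.79 and 2.21 in SW1990 cells, against 1647 and 1672 in PANC-1 cells, nearly all of it the intermediate filament gene VIM, which was at 0.626 and 0 in SW1990 cells. KRT8, KRT18 and KRT19 were thus high in both lines and KRT7 was low in both, at an FPKM of at most 6.35, and PANC-1 cells also carried abundant VIM with little CDH1. Leukocyte markers summed to an FPKM between 1.08 and 2.31, with CD3E at 0 counts in all 4 libraries. The most abundant of them were CD14 in SW1990 cells (0.923 and 1.31) and ITGB2 in PANC-1 cells (0.472 and 1.18). Fibroblast markers summed to 1.32 in both PANC-1 libraries and to 5.99 and 9.30 in SW1990 cells, where ACTA2 led with 4.44 and 8.28. DCN was at 0 counts everywhere. ACTA2 shares 12.8% of its exon length with FAS (at most 380 counts) and 17.3% with ACTA2-AS1 (at most 103 counts), both on the opposite strand. Endothelial markers summed to at most 6.56, nearly all KDR in PANC-1 cells, and acinar markers to at most 0.604.

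The level of the 10 subunits together was several-fold higher in PANC-1 cells. Their summed FPKM was 244 and 258 in SW1990 cells, against 918 and 909 in PANC-1 cells. They made up at least 93.7% of the FPKM of all 26 subunits in every library, and 98.1% and 97.6% in the PANC-1 libraries. In unirradiated cells, all 10 subunits differed by more than 2-fold between the lines, 7 of them higher in PANC-1 cells, with 3 higher in SW1990 cells. Over all genes tested in the same pair, 41% passed 2-fold, 20.1% higher in SW1990 cells and 20.9% higher in PANC-1 cells. In irradiated cells 9 of 10 passed, 7 higher in PANC-1 cells, with 2 in SW1990 cells, against a background of 40.6%, which divided into 19.9% and 20.7%. With FPKM in place of counts, 8 of 10 passed 2-fold in each comparison, ITGA6 and ITGB8 falling short, and with log2(FPKM + 1) 7 passed in unirradiated cells. Scaled by total counts, 9 passed in unirradiated and 8 in irradiated cells. The median log2 ratio of SW1990 over PANC-1 cells was -1.85 and -2.00 for the 10 subunits and -0.02 and -0.01 for all genes tested.

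The 4 libraries also entered a single quasi-likelihood fit in edgeR, with line and treatment as terms and 1 residual degree of freedom. The libraries of a line are 1 unirradiated and 1 irradiated sample, so any unequal response to irradiation enters the spread, and nothing in the labels says that they are separate cultures. Of 18180 genes, 7921 (43.6%) differed between the lines at a Benjamini-Hochberg adjusted p under 0.05, with 21.4% higher in SW1990 cells and 22.2% higher in PANC-1 cells. Of the 10 subunits, 9 passed, with ITGB4 and ITGB6 higher in SW1990 cells and all 5 alpha subunits, ITGB1 and ITGB5 higher in PANC-1 cells. The same 9 passed in each of 8 ways of fitting the data. By the same fit, 5 of 7 epithelial markers were higher in SW1990 cells, and 3 of 4 mesenchymal markers tested were higher in PANC-1 cells, and their part in these differences was not tested.

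**Figure D1:**
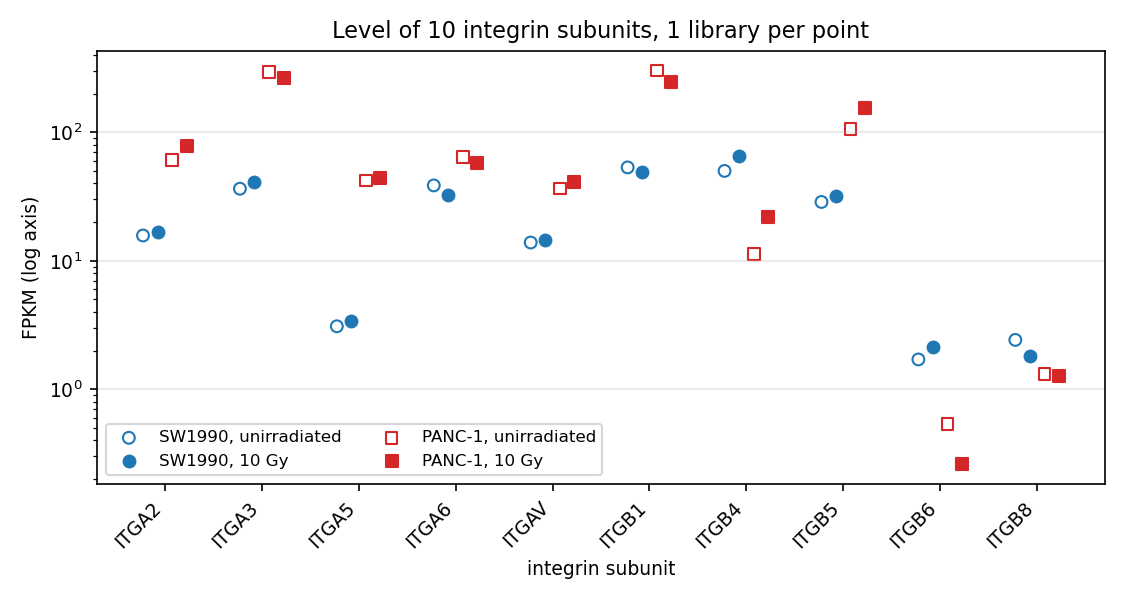
Level of each integrin subunit as FPKM on a log axis, with 1 point per library, circles for SW1990 cells, squares for PANC-1 cells, and filled symbols for 10 Gy. ITGA3 and ITGB1 reach 293 and 303 in unirradiated PANC-1 cells, and the lowest points are those of ITGB6 in PANC-1 cells at 0.534 and 0.263.

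ITGB1, the shared beta subunit of most matrix receptors, lies at chr10:32900319-33005792 on the minus strand of GRCh38. It had 3841 and 3485 counts in SW1990 cells, against 28767 and 20365 in PANC-1 cells. As FPKM, its levels were 53.3 and 49.0 in SW1990 cells, against 303 and 245 in PANC-1 cells. Both PANC-1 libraries were far above both SW1990 libraries, by 6.71-fold without and 5.65-fold with irradiation. The fitted log2 difference was -2.62 ± 0.15 (SE), with an adjusted p of 0.00102 in edgeR's test. Here and below, the SE was derived from that test, as the size of the log2 difference over the square root of the F statistic. A divergent RNA on the opposite strand, ITGB1-DT, shares 0.699% of the exon length of ITGB1 and held at most 75 counts.

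ITGA3 (chr17:50055968-50090481, plus strand) codes for the alpha subunit that joins ITGB1 in a laminin receptor. It had 2623 and 3359 counts in SW1990 cells, against 32071 and 25344 in PANC-1 cells. Its FPKM was 36.4 and 41.1 in SW1990 cells, against 293 and 265 in PANC-1 cells. ITGA3 was therefore 11.0-fold higher in PANC-1 cells without irradiation and 7.30-fold higher with it, and the lines did not overlap. The fit gave -3.16 ± 0.20 (adjusted p = 0.00119, edgeR).

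ITGA2 (chr5:52989326-53094779, plus strand) forms the main collagen receptor of epithelial cells with ITGB1. Its counts were 2559 and 2792 in SW1990 cells, against 11142 and 14872 in PANC-1 cells, and its FPKM was 15.7 and 16.6 against 60.5 and 78.6. The levels of the lines were 3.90-fold and 5.15-fold apart, with PANC-1 cells on top. In the edgeR fit the log2 difference was -2.16 ± 0.17 with an adjusted p of 0.00171.

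ITGA5 (chr12:54395261-54419460, minus strand) is the alpha subunit of the classical fibronectin receptor. It had 202 and 232 counts in SW1990 cells, against 3415 and 3777 in PANC-1 cells. Per length this was an FPKM of 3.09 and 3.39 against 42.2 and 44.3. Among the 7 subunits higher in PANC-1 cells, ITGA5 had the largest ratio, 15.2-fold without and 15.7-fold with irradiation. The log2 ratio was -3.92 (interval -4.13 to -3.72) in unirradiated and -3.98 in irradiated cells, and the fit gave -3.94 ± 0.16 (adjusted p = 0.000804, edgeR). Fibronectin itself (FN1) was close to absent from both lines, with 0 and 25 counts in SW1990 cells, against 8 and 9 in PANC-1 cells.

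ITGB6 (chr2:160099666-160271888, minus strand) joins ITGAV in a receptor of epithelial cells that binds latent TGF-beta, and it differed the other way. It had 172 and 176 counts in SW1990 cells and only 8 and 6 in PANC-1 cells. Its FPKM was 1.71 and 2.13 in SW1990 cells, against 0.534 and 0.263 in PANC-1 cells. All SW1990 values lay above all PANC-1 values on both scales. By counts the ratio was 24.0-fold without irradiation (11.9 to 56.4) and 30.3-fold with it (13.7 to 83.8), and the fitted log2 difference was 4.72 ± 0.41 (adjusted p = 0.00213, edgeR). By FPKM the log2 ratio was only 1.68 and 3.02, so the direction holds and the size depends on the unit. The gene shares 20.6% of its exon length with AC092153.1 on the same strand, which had 0 counts.

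By counts, ITGA5 and ITGB6 are the subunits with the largest ratios in each direction. By FPKM, ITGB4 had a larger log2 ratio than ITGB6 in unirradiated cells (2.15 against 1.68). From the ranking by counts, the 250 bases before the RefSeq start sites of ITGA5 and ITGB6 are shown (GRCh38.p14, 5′ to 3′ on the minus strand that both genes use). The windows are chr12:54419267-54419516 for ITGA5 and chr2:160200273-160200522 for ITGB6. The ITGB6 window lies inside the span that the expression table gives for the gene. The ITGA5 window lies partly inside its gene, whose span ends at 54419460. Capitals mark matches, on either strand, to 4 motifs that were searched, the GC box GGGCGG, the E-box CAGGTG, the AP-1 element TGANTCA and the TATA box TATAAA.
ITGA5: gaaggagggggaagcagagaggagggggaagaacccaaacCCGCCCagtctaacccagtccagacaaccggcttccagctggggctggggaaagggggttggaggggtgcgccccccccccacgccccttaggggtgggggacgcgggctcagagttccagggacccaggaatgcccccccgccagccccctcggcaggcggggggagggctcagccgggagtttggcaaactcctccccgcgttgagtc
ITGB6: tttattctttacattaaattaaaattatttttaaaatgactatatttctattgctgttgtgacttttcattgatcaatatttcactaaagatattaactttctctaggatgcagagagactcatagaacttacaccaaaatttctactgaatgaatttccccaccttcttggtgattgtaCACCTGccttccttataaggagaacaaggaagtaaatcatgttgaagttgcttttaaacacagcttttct
The ITGA5 window had a GC content of 70% and 1 match, to the GC box, which begins 210 bases before the start. The ITGB6 window had a GC content of 30% and 1 match, to the E-box, 70 bases before the start. The median GC content of all 35116 promoter windows was 58%, and the motifs occurred in 42.6% (GC box), 17.5% (E-box), 6.57% (AP-1) and 10.7% (TATA box) of them. These matches describe the letters of the windows and say nothing about binding. RefSeq promoters were matched for 8 of the 10 subunits, with 13 start sites among them, but not for ITGA3 and ITGB4.

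ITGB4 (chr17:75721328-75757818, plus strand) carries the long cytoplasmic tail that links laminin receptors to keratin filaments in hemidesmosomes. It had 4009 and 5012 counts in SW1990 cells, against 1405 and 1650 in PANC-1 cells. Its FPKM was 49.997 and 64.8 in SW1990 cells, against 11.2 and 21.9 in PANC-1 cells. SW1990 cells were 3.18-fold and 3.14-fold higher by counts, with no overlap of the lines, and the fit gave 1.66 ± 0.14 (adjusted p = 0.00188, edgeR).

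ITGA6, the obligate partner of ITGB4 (chr2:172427354-172506282, plus strand), differed in the opposite direction. Its counts were 3068 and 2931 in SW1990 cells, against 7459 and 6093 in PANC-1 cells. Its FPKM of 38.6 and 32.6 in SW1990 cells lay below 64.4 and 57.6 in PANC-1 cells. The ratio of 2.18-fold and 2.01-fold was the smallest among the 9 subunits that passed the test, and by FPKM it stayed under 2-fold, with log2 ratios of -0.74 and -0.82. The fit gave -1.06 ± 0.13 (adjusted p = 0.00509, edgeR). ITGB4 per ITGA6, as a ratio of FPKM, was 1.296 and 1.99 in SW1990 cells, against 0.175 and 0.379 in PANC-1 cells.

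ITGAV (chr2:186590065-186680901, plus strand) is the alpha subunit of the receptors for vitronectin and latent TGF-beta. It had 1787 and 2019 counts in SW1990 cells, against 6654 and 6453 in PANC-1 cells, which corresponds to an FPKM of 13.9 and 14.4 against 36.4 and 41.0. PANC-1 cells were 3.34-fold and 3.09-fold higher, and the fitted log2 difference was -1.68 ± 0.13 (adjusted p = 0.00183, edgeR). ITGB5 (chr3:124761948-124901418, minus strand), which joins ITGAV in a vitronectin receptor, had 1475 and 1472 counts in SW1990 cells, against 8169 and 7962 in PANC-1 cells. Its FPKM was 28.7 and 32.2 in SW1990 cells, against 106 and 155 in PANC-1 cells. PANC-1 cells were 4.96-fold and 5.23-fold higher for ITGB5, with a fitted difference of -2.35 ± 0.14 (adjusted p = 0.00103, edgeR).

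ITGB8 (chr7:20330702-20415754, plus strand) joins ITGAV in another receptor of latent TGF-beta and was the subunit that did not pass between the lines in the edgeR fit. It had 433 and 256 counts in SW1990 cells, against 123 and 207 in PANC-1 cells. Its FPKM was 2.42 and 1.83 in SW1990 cells, against 1.32 and 1.27 in PANC-1 cells. The SW1990 libraries were the higher ones throughout, by 3.93-fold without irradiation and by only 1.28-fold with it. By FPKM the log2 ratios were 0.88 and 0.53, under 2-fold in both. The fit gave 1.16 ± 0.46 with an adjusted p of 0.102 (edgeR), and over the 8 ways of fitting the data the adjusted p lay between 0.0633 and 0.199.

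**Figure D2:**
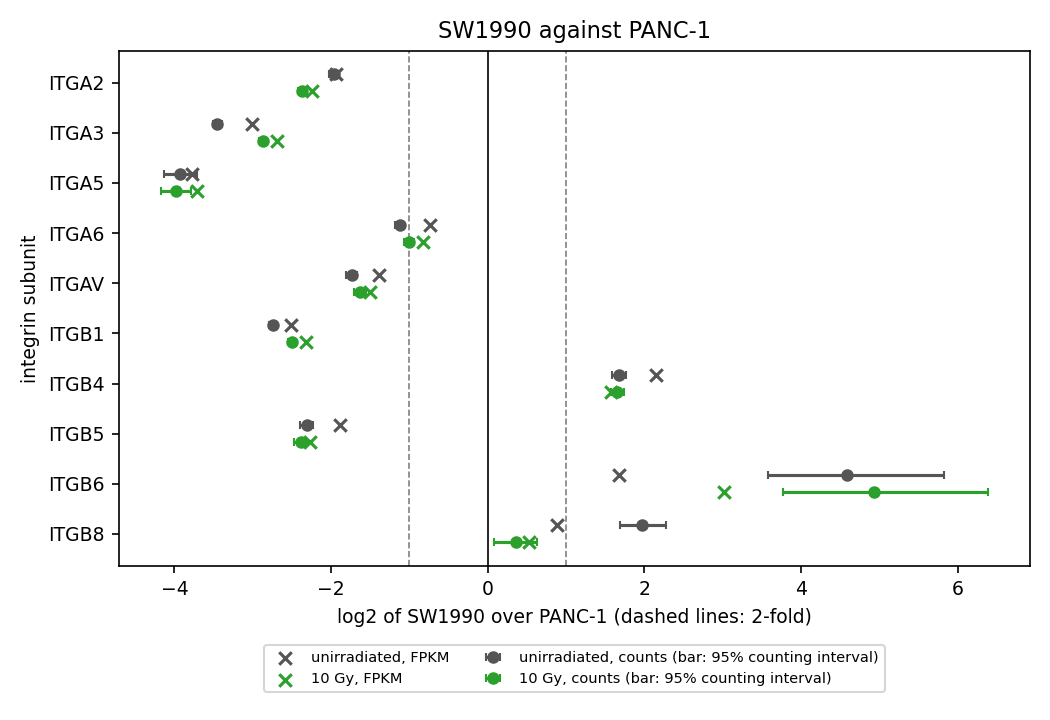
Log2 ratio of SW1990 over PANC-1 cells for each subunit, unirradiated (grey) and 10 Gy (green), from counts (circles, bars are 95% counting intervals) and from FPKM (crosses), with dashed lines at 2-fold. Among the circles, ITGA5 lies farthest to the left at -3.92 and -3.98, and ITGB6 farthest to the right. The crosses of ITGB6, at 1.68 and 3.02, fall short of its count ratios, and the unirradiated cross of ITGB4 lies farther right at 2.15.

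The order of the subunits by mean FPKM of the libraries of a line differed between the lines. In SW1990 cells ITGB4 (57.4) and ITGB1 (51.1) led, followed by ITGA3 (38.7), ITGA6 (35.6), ITGB5 (30.4), ITGA2 (16.2), ITGAV (14.1), ITGA5 (3.24), ITGB8 (2.12) and ITGB6 (1.92). The ranges of ITGB4 and ITGB1, of ITGA3 and ITGA6 and of ITGB8 and ITGB6 overlapped between the SW1990 libraries, so these neighbours could not be ordered by FPKM. In PANC-1 cells ITGA3 (279) and ITGB1 (274) led and overlapped, followed by ITGB5 (131), ITGA2 (69.6) and ITGA6 (61.0), of which the last pair overlapped too. ITGA5 (43.2), ITGAV (38.7), ITGB4 (16.6), ITGB8 (1.29) and ITGB6 (0.399) came after them. This order is that of FPKM, and parts of it turn with counts per kilobase of exon scaled to library size. On that scale ITGB1 (205 and 169) exceeded ITGA3 (140 and 129) in PANC-1 cells, ITGA2 (60.4 and 93.9) did not lie below ITGB5 (54.3 and 61.7), and ITGAV (34.7 and 39.2) exceeded ITGA5 (19.3 and 24.9). In SW1990 cells ITGA2 (18.1 and 19.3) exceeded ITGB5 (12.8 and 12.5), and ITGB6 (2.06 and 2.05) exceeded ITGA5 (1.49 and 1.67). ITGB4 and ITGB1 led in SW1990 cells on both scales.

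The composition of the beta subunits showed the same contrast. ITGB1 made up 38.8% and 32.3% of the summed FPKM of the 8 beta subunits in SW1990 cells, against 71.1% and 57.1% in PANC-1 cells. ITGB4 accounted for 36.4% and 42.7% in SW1990 cells but for 2.64% and 5.10% in PANC-1 cells. The share of ITGB5 was 20.9% and 21.2% in SW1990 cells, against 24.9% and 36.2% in PANC-1 cells. By counts per exon length, ITGB5 was at 14.9% and 14.1% in SW1990 cells, against 19.9% and 24.8% in PANC-1 cells. On that scale ITGB4 was at 38.6% and 45.8% in SW1990 cells, against 3.27% and 4.90% in PANC-1 cells. As a ratio of FPKM, ITGB1 per ITGB4 was 1.07 and 0.756 in SW1990 cells, against 26.9 and 11.2 in PANC-1 cells. Among the 18 alpha subunits, ITGA3 took 30.5% and 33.3% of the summed FPKM in SW1990 cells, against 57.5% and 52.6% in PANC-1 cells. ITGA6 took 32.3% and 26.4% in SW1990 cells, against 12.6% and 11.5% in PANC-1 cells, and ITGA5 took 2.59% and 2.74% against 8.27% and 8.80%. By counts per exon length the shares in SW1990 cells were 19.6% and 23.0% for ITGA3, 34.4% and 30.2% for ITGA6 and 23.7% in both libraries for ITGA2, so the order of these alpha subunits in SW1990 cells depends on the unit. In PANC-1 cells ITGA3 exceeded every other alpha subunit on both scales, with 45.7% and 38.2% by counts per exon length.

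**Figure D3:**
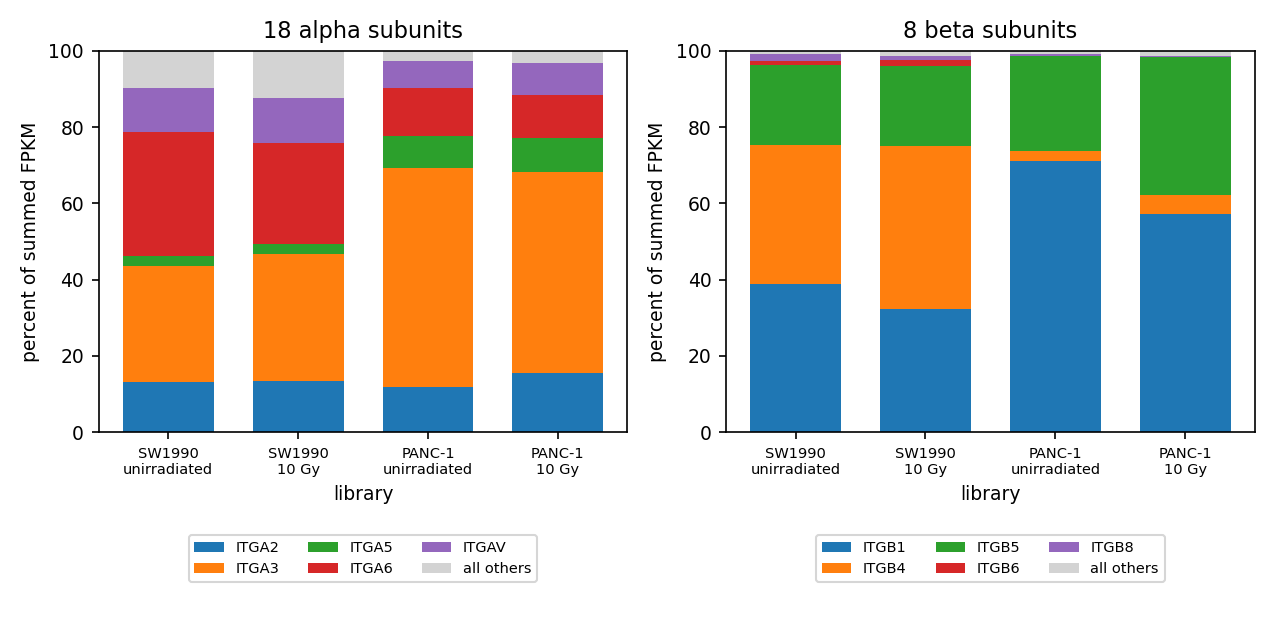
Share of each subunit in the summed FPKM of the 18 alpha subunits (left) and the 8 beta subunits (right), 1 bar per library, in percent. ITGB4 fills 36.4% and 42.7% of the beta bars of SW1990 cells and 2.64% and 5.10% of those of PANC-1 cells.

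After irradiation, no subunit passed 2-fold in either line. This was 0 of 10 in SW1990 cells, where 9.05% of all genes tested passed, and 0 of 9 in PANC-1 cells, where 8.79% passed. ITGB6 was below an FPKM of 1 in both PANC-1 libraries and was not counted there. The median log2 ratio of irradiated over unirradiated cells was 0.10 in SW1990 and 0.09 in PANC-1 cells for the subunits, beside 0.02 and -0.02 for all genes tested. The median size of the ratio, regardless of sign, was 0.172 and 0.276 for the subunits and 0.238 and 0.270 for all genes tested. The comparisons within a line use the same libraries as those between the lines, so they are not independent of each other.

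In the edgeR fit of the 4 libraries, 0 of 18180 genes (0%) passed an adjusted p under 0.05 for irradiation, and so did 0 of the 10 subunits. At an unadjusted p under 0.05, the same fit had 833 of the 18180 genes. This share is below the 0.05 that would be expected to pass if no gene responded. With other tools, DESeq2 called 39 genes, limma-trend on log2 FPKM values called 1 and limma-voom called 0, none of them one of the 10 subunits. ITGB4 had the smallest p of the 10, with a log2 effect of 0.35 ± 0.13, an unadjusted p of 0.0472 and an adjusted p of 0.936 in edgeR's test.

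By counts, though not by FPKM in PANC-1 cells, ITGB8 had the largest ratio in each line, and the directions were opposite. Its counts went from 433 to 256 in SW1990 cells and from 123 to 207 in PANC-1 cells, which is 1.67-fold lower (log2 -0.74, interval -0.97 to -0.51) and 1.84-fold higher (log2 0.88, interval 0.55 to 1.22). By FPKM the log2 ratio was -0.41 in SW1990 cells, against -0.06 in PANC-1 cells, so the higher value in irradiated PANC-1 cells is seen in the counts and not in FPKM. ITGA3 also had ratios of opposite sign. Its log2 ratio was 0.38 in SW1990 cells (interval 0.303 to 0.452), from 2623 to 3359 counts, but -0.21 in PANC-1 cells (interval -0.23 to -0.19), from 32071 to 25344 counts. By FPKM its log2 ratios were smaller, 0.18 and -0.15.

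Ratios of the same direction in both lines, beyond counting error in each, were seen for ITGB4, ITGA2 and ITGAV (higher) and for ITGB1 (lower). For ITGA5, ITGB5 and ITGA6 the counting interval in SW1990 cells included 0. ITGB4 was higher by 0.34 in SW1990 and 0.36 in PANC-1 cells on the log2 scale of counts, and by 0.37 and 0.96 on that of FPKM. ITGA2 was higher by 0.15 and 0.55, and ITGA5 by 0.22 (interval -0.06 to 0.50) and 0.28. ITGB1 had log2 ratios of -0.12 and -0.37. The log2 ratios of counts were 0.20 and 0.09 for ITGAV, 0.02 (interval -0.09 to 0.12) and 0.09 for ITGB5, and -0.05 (interval -0.12 to 0.03) and -0.16 for ITGA6. By FPKM, ITGB5 was at 0.17 and 0.55. ITGB5 in SW1990 cells was at -0.04 when libraries were scaled by total counts. ITGB6 was at 0.05 in SW1990 cells, or -0.00 by total counts, and its 8 and 6 counts in PANC-1 cells could not show a change.

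The difference of the response between the lines, SW1990 minus PANC-1, was -1.62 on the log2 scale for ITGB8 (counting interval -2.01 to -1.23) and 0.59 for ITGA3 (0.51 to 0.66). For ITGA2 it was -0.40 and for ITGB1 0.25. Over the 10 subunits the median size of this difference was 0.182. Over the 13228 genes that could be compared in both lines it was 0.313. ITGB6 is not among those genes, since its FPKM was below 1 in both PANC-1 libraries. Without ITGB6, the middle of the remaining sizes is that of ITGA6, 0.116. Opposite signs in the lines were seen for 3 of 10 subunits, or 2 of 9 without ITGB6, and for 45.4% of the 13228 genes. Of the 3, ITGA3 and ITGB8 had opposite signs beyond counting error, whereas the interval of the difference for ITGB6 ran from -1.22 to 1.90. With 0 residual degrees of freedom, these differences could not be tested.

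**Figure D4:**
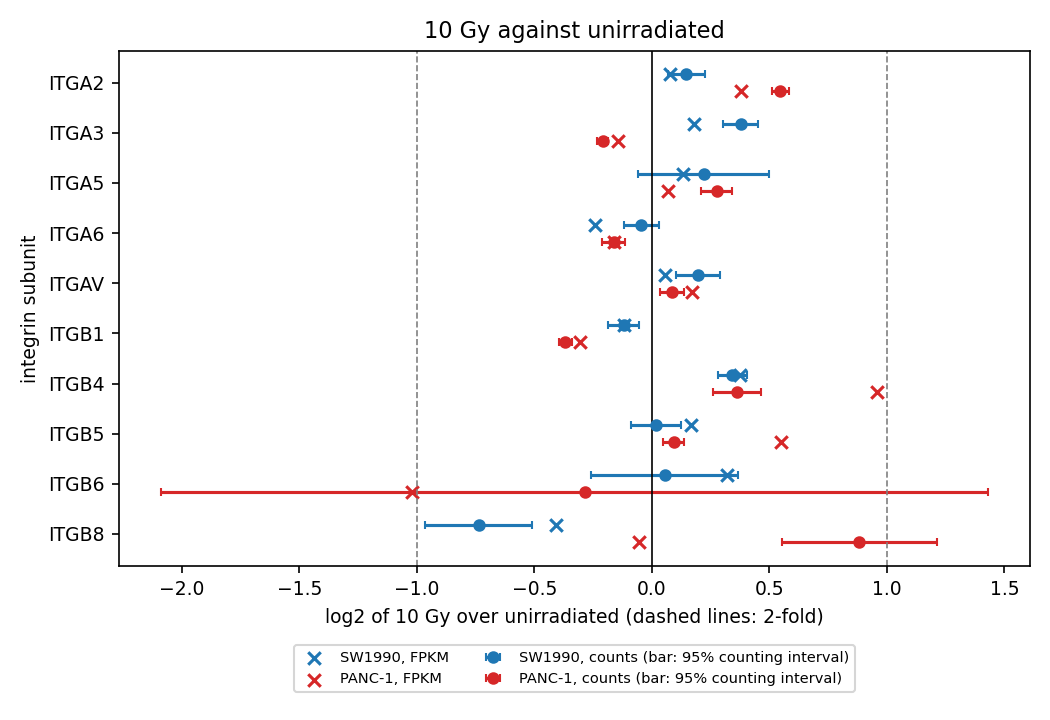
Log2 ratio of 10 Gy over unirradiated cells for each subunit in SW1990 (blue) and PANC-1 cells (red), from counts (circles, bars are 95% counting intervals) and from FPKM (crosses), with dashed lines at 2-fold. No circle lies beyond 2-fold, and ITGB8 has the circles farthest apart, at -0.74 and 0.88.

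Of the other 16 integrin subunits, 7 reached an FPKM of 1 in at least 1 library. ITGAE, which binds E-cadherin as part of a leukocyte integrin, had the highest level by FPKM. This was 8.20 and 12.2 in SW1990 cells, against 11.1 and 14.1 in PANC-1 cells. ITGAE shares exon sequence with HASPIN on the opposite strand, and by counts per exon length ITGB3 exceeded it in PANC-1 cells. ITGB3, the beta subunit of the other classical vitronectin receptor, had 19 and 29 counts in SW1990 cells, against 378 and 367 in PANC-1 cells, a fitted log2 difference of -3.86 ± 0.32 (adjusted p = 0.00198, edgeR). ITGA10, a collagen receptor subunit, was also higher in PANC-1 cells (31 and 41 against 112 and 123 counts, adjusted p = 0.0223, edgeR). ITGA1, another collagen receptor subunit, was higher in SW1990 cells (207 and 176 against 48 and 69 counts, adjusted p = 0.0181, edgeR), and its exons overlap PELO on the same strand. ITGA7 had 54 and 55 against 15 and 35 counts and did not pass the test (adjusted p = 0.104, edgeR). ITGB2 had between 18 and 57 counts. ITGB7 went from 12 to 30 counts in irradiated SW1990 cells, with 0 and 14 in PANC-1 cells, as 1 of 4 other subunits past 2-fold in SW1990 cells (9.05% of all genes) and 0 of 4 in PANC-1 cells (8.79% of all genes), and 42.1% of its exon length overlaps ZNF740 on the opposite strand. The leukocyte subunit ITGA4 and ITGA8 were at 0 counts in all 4 libraries. In the fit, 2 of the 9 other subunits tested were higher in SW1990 and 2 in PANC-1 cells, near the 21.4% and 22.2% of all genes.

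Among 26 matrix ligands tested, 6 were higher in SW1990 cells, against 12 in PANC-1 cells by the edgeR fit. Of all genes in the fit, 21.4% were higher in SW1990 and 22.2% in PANC-1 cells, so the count for SW1990 cells is near the background. LAMA4, a laminin chain, had 0 counts in both SW1990 libraries and 790 and 933 in PANC-1 cells, at least 236-fold and 301-fold higher when a library at 0 is set at the limit of 3 counts. COL5A1, a fibrillar collagen chain, had 2 and 6 counts in SW1990 cells, against 2168 and 2826 in PANC-1 cells (adjusted p = 0.000760, edgeR). NPNT, which codes for nephronectin, was the reverse, with 687 and 617 counts in SW1990 cells, against 0 and 2 in PANC-1 cells, at least 255-fold higher in unirradiated SW1990 cells by the same limit. After irradiation, 1 of 20 ligands passed 2-fold in SW1990 cells, namely VTN, which codes for vitronectin and went from 211 to 462 counts. In PANC-1 cells 1 of 19 passed, COL6A1, with 93 and 190 counts. For ligands and for each list that follows, the shares of all genes past 2-fold after irradiation were 9.05% in SW1990 and 8.79% in PANC-1 cells, and the lists' counts are to be read beside them.

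Of 17 genes tested that switch integrins on or off at the membrane, 4 were higher in SW1990 and 5 in PANC-1 cells, near the background of 21.4% and 22.2%. Of the 3 kindlins, which bind the beta subunit tail, FERMT1 was higher in SW1990 cells and FERMT2 in PANC-1 cells, and FERMT3 had 35 and 40 against 34 and 31 counts (adjusted p = 0.593, edgeR). FERMT1, the kindlin of epithelia, had 1075 and 985 counts in SW1990 cells, against 18 and 15 in PANC-1 cells, with a fitted log2 difference of 6.06 ± 0.23 (adjusted p = 0.000804, edgeR). FERMT2 had 0 counts in both SW1990 libraries and 1131 and 804 in PANC-1 cells, at least 338-fold and 259-fold higher. TNS1, which codes for tensin 1, had 192 and 378 counts in SW1990 cells, against 0 and 8 in PANC-1 cells. DAB2, an endocytic adaptor that can bind integrin tails, passed 2-fold after irradiation in SW1990 cells (286 to 901 counts, 3.20-fold higher), as 1 of 15 genes of this list, and 0 of 15 passed in PANC-1 cells.

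Of 23 adaptors and actin linkers tested, 5 were higher in SW1990 cells, against 9 in PANC-1 cells, where 21.4% and 22.2% of all genes were. TNS4, a tensin that lacks the actin-binding part, had 12136 and 13493 counts in SW1990 cells, against 276 and 507 in PANC-1 cells, 49.1-fold and 27.5-fold higher in SW1990 cells (adjusted p = 0.000975, edgeR). NEDD9, a docking protein of the adhesion kinases, had 710 and 766 counts against 4 and 0. PARVB, which codes for beta-parvin, was the reverse with 9 and 11 counts against 820 and 808 (log2 -6.23, adjusted p = 0.000804, edgeR). After irradiation, 0 of 21 adaptors passed 2-fold in SW1990 cells (9.05% of all genes) and 2 of 22 in PANC-1 cells (8.79% of all genes), which were LIMS2 (25 to 85 counts) and TNS4 (276 to 507 counts).

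Of the 11 adhesion kinases and phosphatases, 2 were higher in SW1990 cells, against 3 in PANC-1 cells, and together they are near the 43.6% of all genes that differed. FYN, a SRC family kinase, had 448 and 532 counts in SW1990 cells, against 107 and 41 in PANC-1 cells (log2 2.95, adjusted p = 0.00819, edgeR). PTK2B, a kinase related to focal adhesion kinase, had 191 and 328 counts against 58 and 62 (log2 2.17, adjusted p = 0.00736, edgeR), and the phosphatase gene PTPN12 was lower in SW1990 cells by a log2 difference of -0.70 (adjusted p = 0.0262, edgeR). After irradiation, FYN was 2.38-fold lower in PANC-1 cells, as 1 of 10 tested there, and 0 of 11 passed 2-fold in SW1990 cells.

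Of 14 hemidesmosome genes and lateral partners tested, 4 were higher in SW1990 cells, against 5 in PANC-1 cells, beside 21.4% and 22.2% of all genes. The tetraspanin gene TSPAN8 had 1148 and 1198 counts in SW1990 cells, against 34 and 40 in PANC-1 cells (log2 5.09, adjusted p = 0.000804, edgeR). CAV1, which codes for caveolin-1, and the hyaluronan receptor gene CD44 were higher in PANC-1 cells, with log2 differences of -3.98 (adjusted p = 0.000898, edgeR) and -3.78 (adjusted p = 0.00107, edgeR). COL17A1, a transmembrane collagen of hemidesmosomes that binds ITGB4, had 35 counts in unirradiated and 253 in irradiated SW1990 cells, 7.33-fold higher (5.14 to 10.8) by counts. By FPKM it went from 0.273 to 3.88, a log2 ratio of 3.83 against 2.87 by counts. In PANC-1 cells COL17A1 had 34 and 48 counts. It was the gene of this list past 2-fold after irradiation, 1 of 14 in SW1990 cells and 0 of 13 in PANC-1 cells.

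Of 16 genes of integrin traffic and processing tested, 4 were higher in SW1990 cells, against 0 in PANC-1 cells by the edgeR fit, beside 21.4% and 22.2% of all genes. At an FPKM of at least 1 in either library, 2 of 16 passed 2-fold in each comparison of the lines, where 41% and 40.6% of all genes passed. RAB25, an epithelial GTPase that recycles integrins, had 969 and 1261 counts in SW1990 cells, against 6 and 0 in PANC-1 cells, 180-fold higher in unirradiated SW1990 cells (82.5 to 492). PCSK5, a proprotein convertase, had 354 and 332 counts in SW1990 cells, against 0 in both PANC-1 libraries. RAB11A, another recycling GTPase, had 1692 and 2573 counts against 1426 and 1469 (log2 0.64, adjusted p = 0.0398, edgeR). After irradiation, 0 of 16 and 0 of 14 genes of this list passed 2-fold in SW1990 and PANC-1 cells. In the fit of the 4 libraries, 0 genes of any of these lists passed the test for irradiation.

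**Figure D5:**
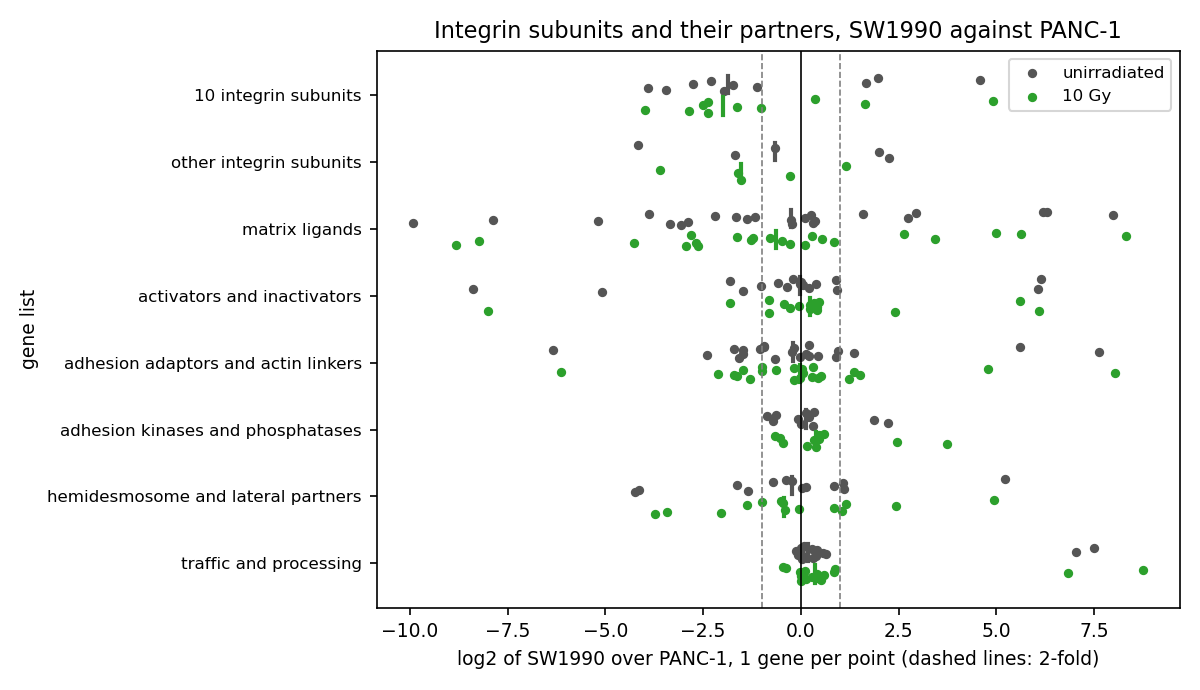
Log2 ratio of SW1990 over PANC-1 cells for the 10 integrin subunits and for 7 lists of related genes, with 1 point per gene, in unirradiated (grey) and 10 Gy (green) libraries, a short bar at the median and dashed lines at 2-fold. The bars of the 10 subunits lie at -1.85 and -2.00, and those of traffic and processing genes at 0.18 and 0.35.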

How the data were processed

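RNA of 4 libraries was sequenced. The protocol names an mRNA library kit, whereas the labels describe the RNA as depleted of rRNA. Per the submitters' processing notes and the supplementary methods, the authors trimmed reads with Trimmomatic 0.36, aligned them to GRCh38 with HISAT2 2.0 and computed FPKM with StringTie 1.3.3b. The deposited table holds the FPKM values and raw read counts per gene and library. The counting tool and its use of strand are not given in the sources used here. The 1089 rows that name no gene (0.453% to 0.635% of the counts) were left out, 27 gene names that had become dates were restored, and 57836 of 58174 identifiers matched GENCODE 29.

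Pairs of libraries were compared by TMM-scaled counts with exact Clopper-Pearson intervals at 95% and no test. A library at 0 counts was set at 3. The 4 libraries were fitted with edgeR 4.0.16 (R 4.3.3, glmQLFit, genes kept by filterByExpr) with Benjamini-Hochberg adjustment over all genes. The fit was run on data simulated with 4-fold changes and a coefficient of variation of 0.1. It recovered 200 of 200 changed genes for line and for irradiation, with 9 and 7 false calls. The fit to the real data had a larger coefficient of variation, 0.218, so this outcome does not show how the fit performs here. DESeq2 1.42.0, limma 3.58.1, other scalings and filters and a fold of 1.5 were alternatives. The 2-fold limit and the FPKM minimum of 1 follow the supplementary methods.

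All 10 subunits are named, as are other subunits at an FPKM of at least 1, up to 3 partners per list past 2-fold after irradiation, up to 3 with the largest difference between the lines, and the markers. ITGA4, ITGA8 and FERMT3 were named after their values were seen. The subunits and lists were chosen with earlier results of these data known.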

Additional observations from a re-analysis of the deposited data

Results flagged for a closer look

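The response of ITGA3 to irradiation had opposite signs in the lines beyond counting error, and the log2 response in SW1990 minus that in PANC-1 cells was 0.59. By FPKM its ratios kept their signs but were smaller (0.18 and -0.15). The response of ITGB8 was opposite in the same sense, with a difference of -1.62. With 1 library per condition, neither difference was tested, and by FPKM the ITGB8 ratio was below 0 in both lines (-0.41 and -0.06).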

How the results depend on the processing

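The labels carry no replicate numbers. The line term of the fit already sets irradiated against unirradiated cells within a line, and no further block could be added. With 1 library per condition no replicate could be left out. The numbers of genes past 2-fold after irradiation, 1423 in SW1990 and 1333 in PANC-1 cells, became 640 and 596 on log2(FPKM + 1), 3951 and 3946 without the FPKM minimum, 3169 and 3240 at a fold of 1.5, and 669 and 721 when a read test at q under 0.001 was also required. At a fold of 1.5, 1 subunit passed in SW1990 and 1 in PANC-1 cells, ITGB8 in both. Without the FPKM minimum, 10545 genes differed between the lines unirradiated and 10586 irradiated. For irradiation, DESeq2 called 39 genes and limma-trend on FPKM 1. The share of ITGB1 among beta subunits by counts per exon length was 41.6% and 35.8% in SW1990 and 75.2% and 68.1% in PANC-1 cells. The fitted irradiation effect of ITGB8, 0.05, turned to -0.10 with limma-voom and -0.15 with limma-trend. The cause of these shifts was not tested. The TMM factors of each pair alone were tried after seeing the data. Scaling by total counts moved the median log2 ratio of all genes by 0.22 between the unirradiated lines. The number of genes called between the lines, 7921, lay between 6105 (no filter on low counts) and 8392 (treatment term left out) under the alternatives. ITGB6 in PANC-1 cells is limited by depth, at 8 and 6 counts.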
